A study of Mus musculus with 2 samples.

Results

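The 10 genes described here encode heat shock chaperones, the proteins that keep other proteins folded, and were taken by symbol from the 55357 genes listed in each library. They are Hspa1a, Hspa1b, Hspa8, Dnajb1, Dnaja1, Hsp90aa1, Hsp90ab1, Hsph1, Hspb1 and Hspe1. The set was chosen by name with knowledge of microglial levels in these libraries, above all of the Hspa1a and Hspa1b difference between them. RNA was counted in single CD45+CD11b+ primary cells of the cerebral cortex in 2 droplet libraries. The Msn_KO library came from 8-week-old mice without Msn, the gene of the membrane and actin linker moesin, for which the series names C57BL/6. The WT library came from wild-type mice of the same age, whose strain, like the sex of all mice and the deleted part of Msn, is not given in the sources used here. Per genotype the cortices of 5 to 6 mice were pooled. With 1 library per genotype there is no replicate check and no test. All intervals given here are 95% intervals of counting error only, and genotype cannot be told apart from library.

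Classes, 4 in all, were gated on marker RNA, each with at least 1 UMI of the named genes, a UMI being 1 captured RNA molecule. Microglia, the resident macrophages of the brain, were cells with P2ry12 and Tmem119 (4458 Msn_KO and 4972 WT cells). Monocytes had Ace or Ly6c2 (666 Msn_KO and 55 WT cells), and border macrophages had Mrc1 and Pf4 (132 Msn_KO and 25 WT cells). NK cells had Ncr1 and Nkg7 and numbered 42 in the Msn_KO library and 0 in the WT library. The fixed marker list of each class was then summed. Microglial markers, which include no gate gene, summed to 27553 CPM (counts per 1000000 UMIs of the class) in Msn_KO microglia and 27914 CPM in WT microglia. Monocyte markers summed to 9037 CPM in Msn_KO monocytes and 10974 CPM in WT monocytes, and border macrophage markers to 10760 CPM in Msn_KO and 10771 CPM in WT border macrophages, and NK markers to 30502 CPM in Msn_KO NK cells. These lists include the gate genes of their class, so their sums are partly set by the gates. The largest single marker was Pf4 (4771 CPM) in Msn_KO and Mrc1 (3087 CPM) in WT border macrophages, both gate genes. It was Plac8 in monocytes (3887 CPM in Msn_KO and 4369 CPM in WT) and Gzma (17382 CPM) in NK cells, which are not gate genes.

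Chaperones of the Hsp70 family bind exposed hydrophobic stretches of unfolded proteins and release them in cycles driven by ATP. J-domain proteins deliver the clients and start ATP hydrolysis, nucleotide exchange factors end the cycle, and Hsp90 takes over later folding of kinases and receptors. When unfolded proteins build up, the transcription factor HSF1 forms trimers and binds heat shock elements, inverted repeats of GAA, in front of these genes. Of the members 6 are counted here as stress-induced: the inducible Hsp70 genes Hspa1a and Hspa1b, the J-domain gene Dnajb1, the exchange factor gene Hsph1, the small holdase gene Hspb1 and the inducible Hsp90 gene Hsp90aa1. The other 4 are counted as constitutive: the cognate Hsp70 gene Hspa8, the Hsp90 gene Hsp90ab1, the J-domain gene Dnaja1 and Hspe1, the gene of the mitochondrial co-chaperonin. Dnaja1 and Hspe1 are also known to respond to heat. In brain cells Hspa1a is among the genes known to be induced while tissue is taken apart, a step both libraries went through.

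The stretches printed here show the heat shock elements found before the canonical transcripts of members, since the members share HSF1 as a known regulator. They are from GRCm39, from the 250 bases before the start of each gene's canonical transcript, in the direction of the gene, with each match to GAANNTTC or TTCNNGAA in capitals. Hspa1a and Hspa1b lie on the minus strand of chromosome 17, Dnaja1 on the plus strand of chromosome 4, Hsph1 on the minus strand and Hspb1 on the plus strand of chromosome 5, and Hspe1 on the plus strand of chromosome 1.
Hspa1a, chr17:35191218-35191247: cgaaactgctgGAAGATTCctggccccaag
Hspa1b, chr17:35178300-35178329: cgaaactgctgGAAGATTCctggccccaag
Dnaja1, chr4:40722333-40722362: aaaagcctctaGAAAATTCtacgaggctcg
Hsph1, chr5:149559816-149559845: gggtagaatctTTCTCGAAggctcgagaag
Hspb1, chr5:135916655-135916684: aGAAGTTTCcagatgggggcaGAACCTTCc
Hspe1, chr1:55127212-55127241: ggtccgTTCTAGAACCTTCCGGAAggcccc
The stretches in front of Hspa1a and Hspa1b are the same 30 bases. Those of Dnaja1 and Hsph1 lie inside the gene spans given below, as those spans begin before the canonical transcript does. Hspb1 has 2 separate matches and Hspe1 has 3 that overlap each other. Hspe1 was the 1 member with the longer element, GAANNTTC followed by NNGAA or TTCNNGAA followed by NNTTC, which stood in 0.349% of 21770 windows of the same kind. A match of the shorter element, on either strand, stood in the windows of 6 of the 10 members and in 12.3% of the 21770 windows. The windows of Hspa8, Dnajb1, Hsp90aa1 and Hsp90ab1 held no match of these letters.

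Hspa1a (ENSMUSG00000091971) lies at chr17:35188166-35191132 and Hspa1b (ENSMUSG00000090877) at chr17:35175412-35178214, each as 1 exon. Their transcripts share 49.3% of the 90-base windows of Hspa1a and 52.3% of those of Hspa1b, but 0 windows within the last 500 bases, where 3′ tags fall. The other members lie at chr9:40711630-40731039 (Hspa8, ENSMUSG00000015656), chr8:84334811-84339820 (Dnajb1, ENSMUSG00000005483) and chr4:40722056-40737149 (Dnaja1, ENSMUSG00000028410). Hsp90aa1 (ENSMUSG00000021270) lies at chr12:110656842-110669166 and Hsp90ab1 (ENSMUSG00000023944) at chr17:45878552-45891949. Hsph1 (ENSMUSG00000029657) lies at chr5:149537636-149560156, Hspb1 (ENSMUSG00000004951) at chr5:135916760-135918417 and Hspe1 (ENSMUSG00000073676) at chr1:55127260-55130476.

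The libraries held 67575835 UMIs (Msn_KO) and 68576464 UMIs (WT), of which 7573 Msn_KO and 5577 WT cells were kept, and 13 barcodes stood in both. Msn_KO microglia had a median of 5572 UMIs per cell and 0.471% mitochondrially encoded UMIs, against 7212.5 UMIs and 1.40% in WT microglia. Msn itself stood at 20.5 CPM in Msn_KO microglia and 320 CPM in WT microglia, but a 3′ tag outside the deleted part would check nothing. Of markers of other cells, red cell genes summed to 470 CPM in Msn_KO microglia and 89.5 CPM in WT microglia. Monocyte markers summed to 107 CPM in Msn_KO and 45.2 CPM in WT, NK markers to 27.9 CPM in Msn_KO and 5.26 CPM in WT and choroid plexus markers to 14.1 CPM in Msn_KO and 1.09 CPM in WT microglia. Border macrophage markers summed to 250 CPM in Msn_KO microglia and 274 CPM in WT microglia. The part of depth, mitochondrial share and these markers in the chaperone values was not tested beyond the depth windows given further on.

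Chaperone RNA took a larger share of Msn_KO than of WT microglial RNA, most of all for the inducible Hsp70 genes. The 10 members together made up 5172 CPM (5148 to 5196) in Msn_KO microglia and 3098 CPM (3084 to 3112) in WT microglia. A gene was called when its ratio passed 1.5-fold after the ratio of the median gene had been taken off. That median was -0.29 on the log2 scale in microglia, over 8721 genes with at least 10 CPM in 1 or both libraries. On this relative scale 9 of the 10 members were higher in Msn_KO microglia and 0 were lower, where 15.0% of all 8721 genes were higher and 12.4% lower. On the plain CPM scale 8 members were higher and 0 lower, against 4.49% and 30.2% of genes. The members had been proposed with this difference in view, so nothing is read from these counts. The median relative log2 ratio was 1.20 for the stress-induced members, 1.01 for the constitutive members and 0 for all genes by construction.

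**Figure D1:**
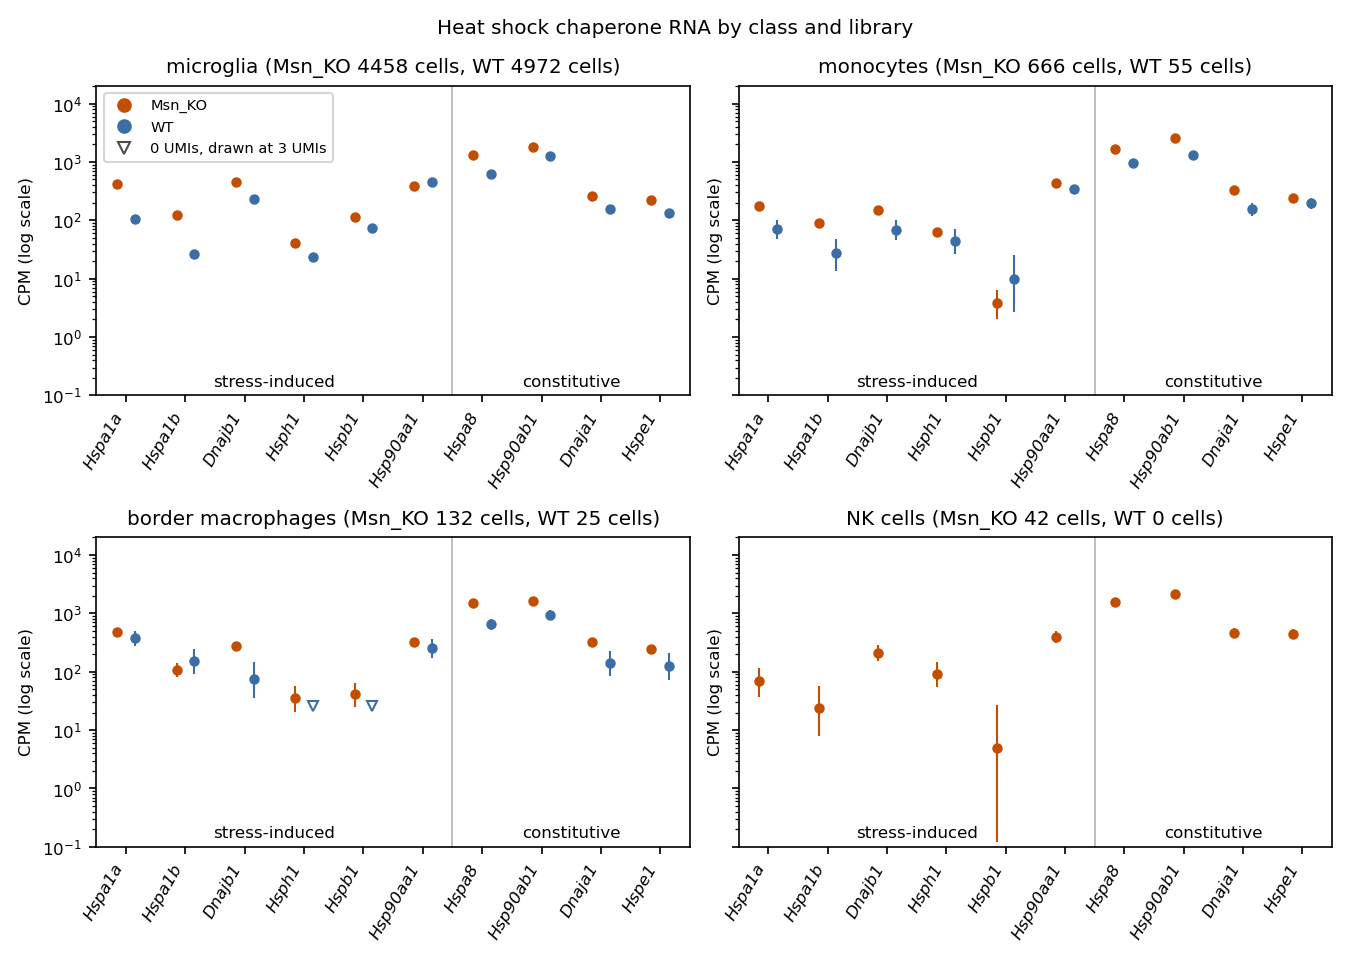
Levels of the 10 chaperone genes in 4 gated classes, in CPM on a log axis, with Msn_KO (orange) left of WT (blue). Points are summed UMIs of a class and library with exact 95% Poisson intervals, and open triangles stand for 0 UMIs drawn at the level of 3 UMIs; in microglia every member except Hsp90aa1 (392 CPM in Msn_KO, 445 CPM in WT) lies higher in Msn_KO.

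Hspa1a, an Hsp70 gene with little RNA in unstressed cells, stood at 425 CPM (418 to 432) in Msn_KO microglia and 104 CPM (102 to 107) in WT microglia. The relative log2 ratio was 2.32 (2.27 to 2.36). Its neighbour Hspa1b, which encodes nearly the same protein, stood at 124 CPM (120 to 127) in Msn_KO microglia and 26.6 CPM (25.3 to 27.9) in WT microglia, with a relative log2 ratio of 2.51 (2.43 to 2.60). Among the 8721 measured genes these ratios ranked at the 99.7th percentile for Hspa1a and the 99.8th for Hspa1b. The set was chosen with this difference known, so nothing is read from the ranks. Dnajb1, the J-domain partner of the inducible Hsp70s, stood at 453 CPM in Msn_KO microglia and 228 CPM in WT microglia (relative log2 ratio 1.28, 1.25 to 1.32). Hsph1, whose product recharges Hsp70 with ATP, stood at 41.0 CPM in Msn_KO microglia and 23.1 CPM in WT microglia (1.12, 1.01 to 1.23). Thus the Hsp70 genes, their J-domain partner and their exchange factor were all higher in the Msn_KO library, the Hsp70 genes by the most.

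Hsp90aa1 stood apart from the other stress-induced members. It had 392 CPM (385 to 399) in Msn_KO microglia and 445 CPM (440 to 450) in WT microglia. Its log2 ratio was -0.18 on the CPM scale and 0.11 (0.08 to 0.14) relative to the median gene, so the direction turns with the scaling and the size passes 1.5-fold on neither. Hspb1, a small heat shock protein gene, stood at 115 CPM in Msn_KO microglia and 75.2 CPM in WT microglia (relative log2 ratio 0.91, 0.85 to 0.97).

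The constitutive members were higher in Msn_KO microglia by less than Hspa1a and Hspa1b. Hspa8, the Hsp70 of unstressed cells, stood at 1338 CPM (1326 to 1350) in Msn_KO microglia and 620 CPM (614 to 627) in WT microglia, with a relative log2 ratio of 1.40 (1.38 to 1.42). That ratio lay above the ratios of Dnajb1, Hsph1 and Hspb1, with intervals that did not overlap theirs. Hsp90ab1, the Hsp90 of unstressed cells, stood at 1803 CPM in Msn_KO microglia and 1282 CPM in WT microglia. Its relative log2 ratio was 0.79 (0.77 to 0.80), but on the CPM scale it was 0.49 and did not pass 1.5-fold. Dnaja1, a J-domain gene, stood at 261 CPM in Msn_KO microglia and 159 CPM in WT microglia (relative log2 ratio 1.01, 0.97 to 1.05). Hspe1 stood at 220 CPM in Msn_KO microglia and 134 CPM in WT microglia (1.01, 0.96 to 1.05), so these 2 genes had ratios that did not differ beyond counting error.

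Because 3′ tags count molecules and not bases, levels were not divided by gene length, and capture may still differ between genes. On that scale Hsp90ab1 and then Hspa8 had the most UMIs and Hsph1 the fewest in microglia of both libraries. Hsp90aa1 was the fifth member by level in Msn_KO microglia and the third in WT microglia, and Hspa1a the fourth in Msn_KO microglia and the seventh in WT microglia. Neighbours in each order were further apart than their counting intervals.

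The stress-induced members summed to 1549 CPM in Msn_KO microglia and 902 CPM in WT microglia, and the constitutive members to 3623 CPM in Msn_KO and 2195 CPM in WT. Stress-induced UMIs per constitutive UMI were therefore close, at 0.428 (0.423 to 0.432) in Msn_KO microglia and 0.411 (0.407 to 0.415) in WT microglia. Without Hsp90aa1 that ratio was 0.319 (0.316 to 0.323) in Msn_KO microglia and 0.208 (0.206 to 0.211) in WT microglia. The balance between the sets thus depends on how Hsp90aa1 is counted. Hspa1a and Hspa1b took 10.6% (10.5 to 10.7) of the members' UMIs in Msn_KO microglia and 4.23% (4.14 to 4.32) in WT microglia, while Hsp90aa1 took 7.58% in Msn_KO and 14.4% in WT. Between the cytosolic Hsp90 genes, Hsp90aa1 per Hsp90ab1 was 0.217 (0.213 to 0.221) in Msn_KO microglia and 0.347 (0.342 to 0.352) in WT microglia.

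**Figure D2:**
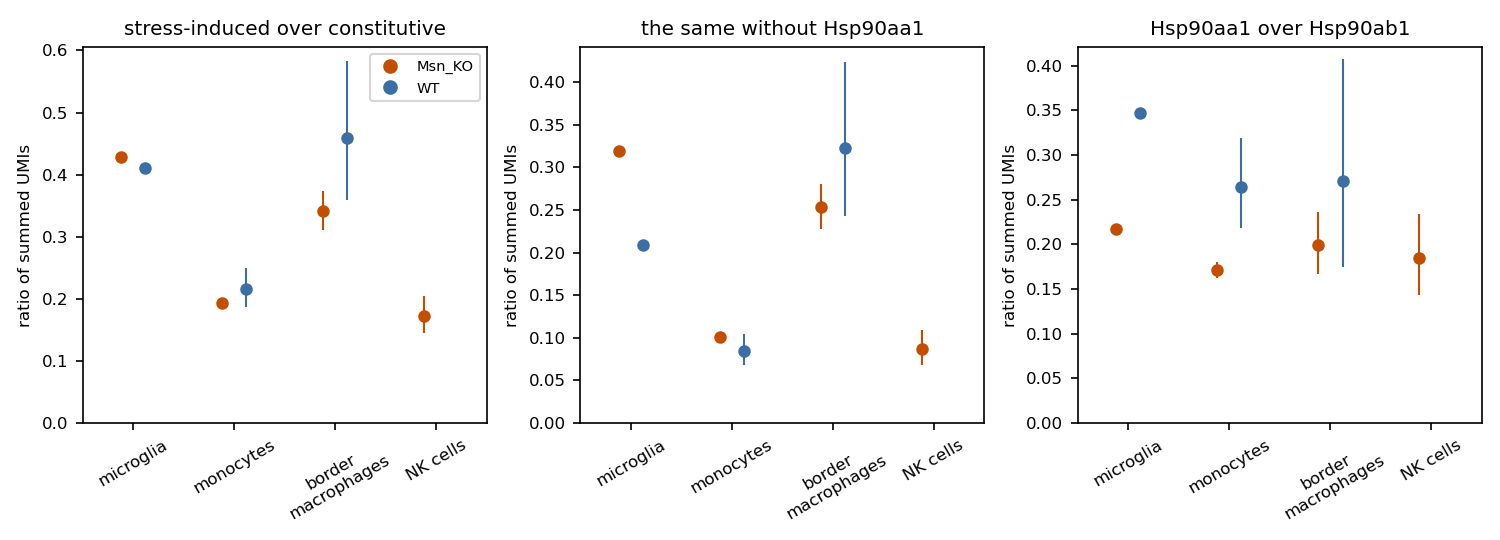
Ratios of summed UMIs in the 4 classes, with Msn_KO (orange) left of WT (blue) and exact 95% counting intervals as bars. The left panel gives stress-induced over constitutive members, the middle panel the same without Hsp90aa1 and the right panel Hsp90aa1 over Hsp90ab1, which is lower in Msn_KO in microglia (0.217 against 0.347) and monocytes (0.171 against 0.265).

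More Msn_KO than WT microglia held inducible Hsp70 RNA. Hspa1a was found in 57.4% of Msn_KO microglia and 39.4% of WT microglia. After each cell was thinned to 2000 UMIs, which left 4115 Msn_KO and 4836 WT microglia and dropped 343 Msn_KO and 136 WT cells as too shallow, the shares were 37.3% (35.8 to 38.8) in Msn_KO and 14.4% (13.4 to 15.4) in WT. Thinning lowered the WT share by more. WT cells were deeper, and thinned Msn_KO cells held more Hspa1a UMIs per cell (mean 0.856 in Msn_KO and 0.211 in WT). The part of each in that drop was not tested. Hspa1b was found in 34.8% of Msn_KO and 14.3% of WT microglia before thinning and in 16.7% (15.6 to 17.9) of Msn_KO and 4.71% (4.13 to 5.35) of WT microglia after it. Either gene was found in 43.8% of thinned Msn_KO microglia and 17.5% of thinned WT microglia. No class here is known to lack Hsp70 RNA, so no share of cells without the gene can be set beside these.

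Most other members were widely found. In thinned microglia Hspa8 was found in 89.8% of Msn_KO and 67.9% of WT cells, Dnajb1 in 50.4% of Msn_KO and 32.1% of WT cells, Dnaja1 in 38.1% of Msn_KO and 26.0% of WT cells, and Hspe1 in 36.0% of Msn_KO and 23.9% of WT cells. Before thinning those shares lay closer: 94.7% in Msn_KO and 93.8% in WT for Hspa8, 75.5% in Msn_KO and 70.6% in WT for Dnajb1, 70.0% in Msn_KO and 66.7% in WT for Dnaja1, and 67.1% in Msn_KO and 63.9% in WT for Hspe1. Hsp90ab1 was found in 97.2% of Msn_KO and 98.3% of WT microglia before thinning, and in 94.0% of Msn_KO and 89.9% of WT microglia after it. Hsph1 was found in 22.4% of Msn_KO and 20.0% of WT microglia before thinning and in 7.44% of Msn_KO and 4.20% of WT microglia after it. Hsp90aa1 was found in fewer Msn_KO than WT cells on both counts, at 79.0% in Msn_KO and 88.4% in WT before thinning and 49.1% (47.6 to 50.6) in Msn_KO and 56.0% (54.6 to 57.4) in WT after it.

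The genes differed in how their RNA was spread over cells. For Hspa8 the whole distribution lay higher: its level per cell was 394 CPM at the 10th percentile, 1200 at the median and 2224 at the 90th in Msn_KO microglia, against 181, 574 and 1084 CPM in WT microglia. Hspa1a was more uneven, with a median of 150 CPM and a 90th percentile of 1260 CPM in Msn_KO microglia, against 0 and 275 CPM in WT microglia. In thinned cells at least 5 Hspa1a UMIs stood in 169 Msn_KO microglia (4.11%) and 15 WT microglia (0.310%). The highest 10% of cells held 55.5% of the Hspa1a UMIs in Msn_KO microglia and 62.1% in WT microglia, a share that also depends on how many cells had a UMI. In thinned cells the variance over the mean of Hspa1a was 3.23 in Msn_KO microglia and 2.32 in WT microglia. For Hspa8 the highest 10% of cells held 33.8% of its UMIs in Msn_KO microglia and 35.6% in WT microglia.

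Hspb1 RNA was held by few cells in both libraries. The highest 10% of cells held 96.6% of its UMIs in Msn_KO microglia and 87.7% in WT microglia, and the highest 1% (45 Msn_KO and 50 WT cells) held 41.2% in Msn_KO and 27.4% in WT. The gene's larger level in Msn_KO microglia did not come with more cells that had it. Unthinned, it was found in 13% of Msn_KO and 19.2% of WT microglia, and after thinning in 7.53% (6.75 to 8.38) of Msn_KO and 7.73% (7.0 to 8.52) of WT microglia. At least 3 UMIs stood in 101 thinned Msn_KO microglia (2.45%) and 67 thinned WT microglia (1.39%). Tmem119 and P2ry12 are the gate genes of the class, so their presence in those cells was fixed by the gate. Tmem119 stood at 1564 CPM in them and 1583 CPM in cells without Hspb1 in the Msn_KO library. In the WT library it stood at 1575 CPM in them and 1652 CPM in cells without Hspb1. P2ry12, a purine receptor gene of resting microglia, was lower in them in the Msn_KO library, with intervals that do not overlap. It stood there at 2183 CPM (1984 to 2397), against 2496 CPM (2461 to 2532) in cells without Hspb1. In the WT library P2ry12 stood at 2358 CPM in them and 2395 CPM in cells without Hspb1, with intervals that overlap. In the Msn_KO library Hspa1a (559 CPM against 418), Dnajb1 (619 against 450) and Hspa8 (1609 against 1345) were higher in them, with intervals apart. The same genes ran lower in the WT library, at 67.2 against 104, 201 against 219 and 590 against 616 CPM, with intervals that overlap. Of the other members besides Hspb1, Hsph1 in WT alone had intervals apart, at 59.7 CPM (8 UMIs) against 20.4 CPM.

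**Figure D3:**
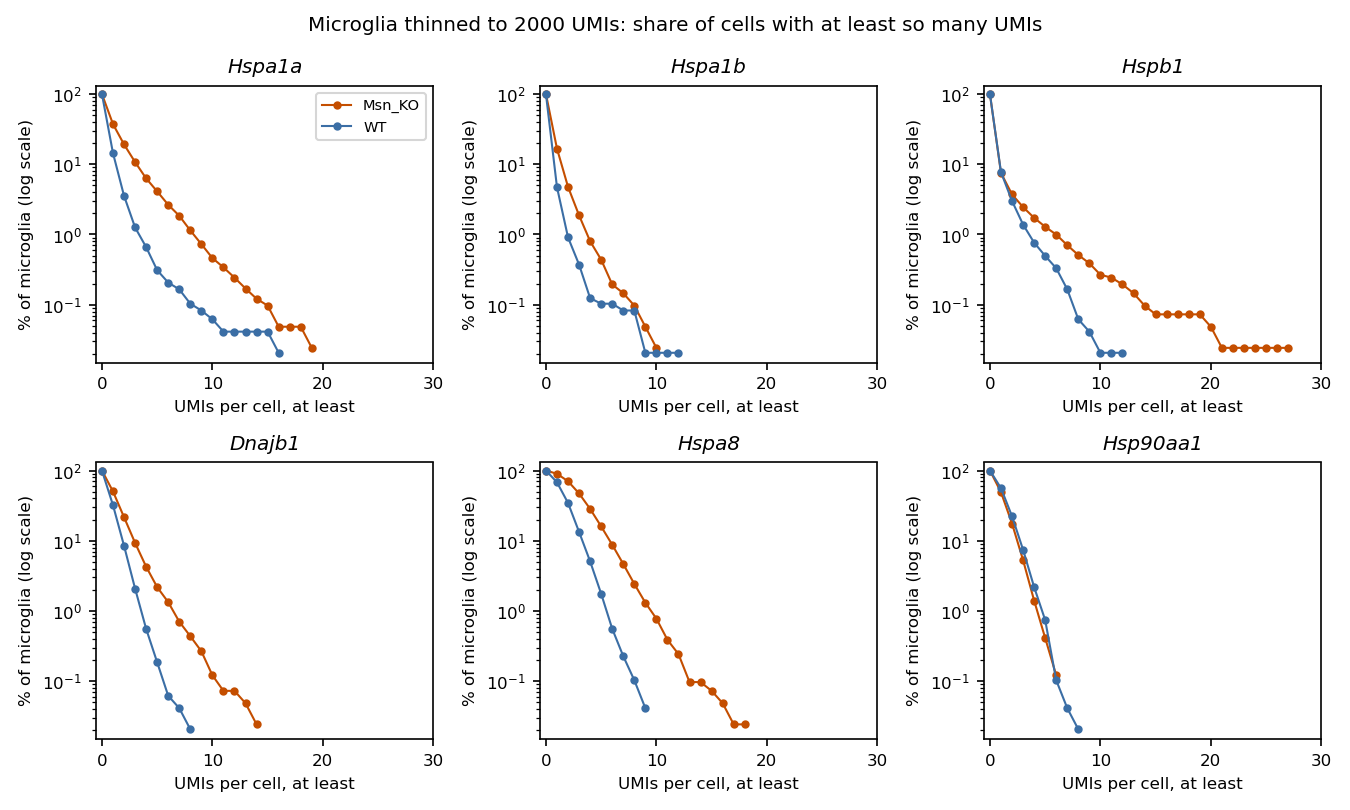
Share of microglia with at least so many UMIs of a gene, in percent on a log axis, after each cell was thinned to 2000 UMIs, for 4115 Msn_KO cells (orange) and 4836 WT cells (blue). The Hspa1a and Hspa1b curves are apart from the first UMI on (37.3% against 14.4% of cells for Hspa1a), the Hspb1 curves start together (7.53% against 7.73%) and part at higher counts, and the Hsp90aa1 curve is lower in Msn_KO (49.1% against 56.0%).

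Windows of UMIs per cell were compared because Msn_KO microglia were shallower. Over 5 windows, from 500 to 2000 UMIs up to 16000 UMIs or more, the relative log2 ratio was 2.25 to 2.60 for Hspa1a, 1.43 to 2.63 for Hspa1b and 0.81 to 1.43 for Hspa8. It was 0.75 to 0.87 for Hsp90ab1, 1.01 to 1.86 for Hsph1 and 0.72 to 2.59 for Hspb1, so these 6 members passed 1.5-fold in each window on the relative scale. On the CPM scale Hsp90ab1 passed it in 0 windows (0.48 to 0.57), Hspb1 missed it among cells of 4000 to 8000 UMIs (0.45) and Hspa8 missed it in the shallowest window (0.58). In the shallowest window the intervals of Hspb1 (1.58, -0.54 to 4.76) and Hsph1 (1.36, -0.19 to 3.34) reached below 0 on the CPM scale. Dnajb1 (0.42 to 1.38), Dnaja1 (0.56 to 1.02) and Hspe1 (0.08 to 1.10) passed it in 4 windows and missed it in the shallowest, which held 343 Msn_KO and 136 WT cells. Hsp90aa1 (-0.04 to 0.22) passed it in 0 windows. The median mitochondrial share was lower in Msn_KO microglia in each window, with 1.47% in Msn_KO and 3.38% in WT in the shallowest window and 0.456% in Msn_KO and 1.35% in WT in the deepest.

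**Figure D4:**
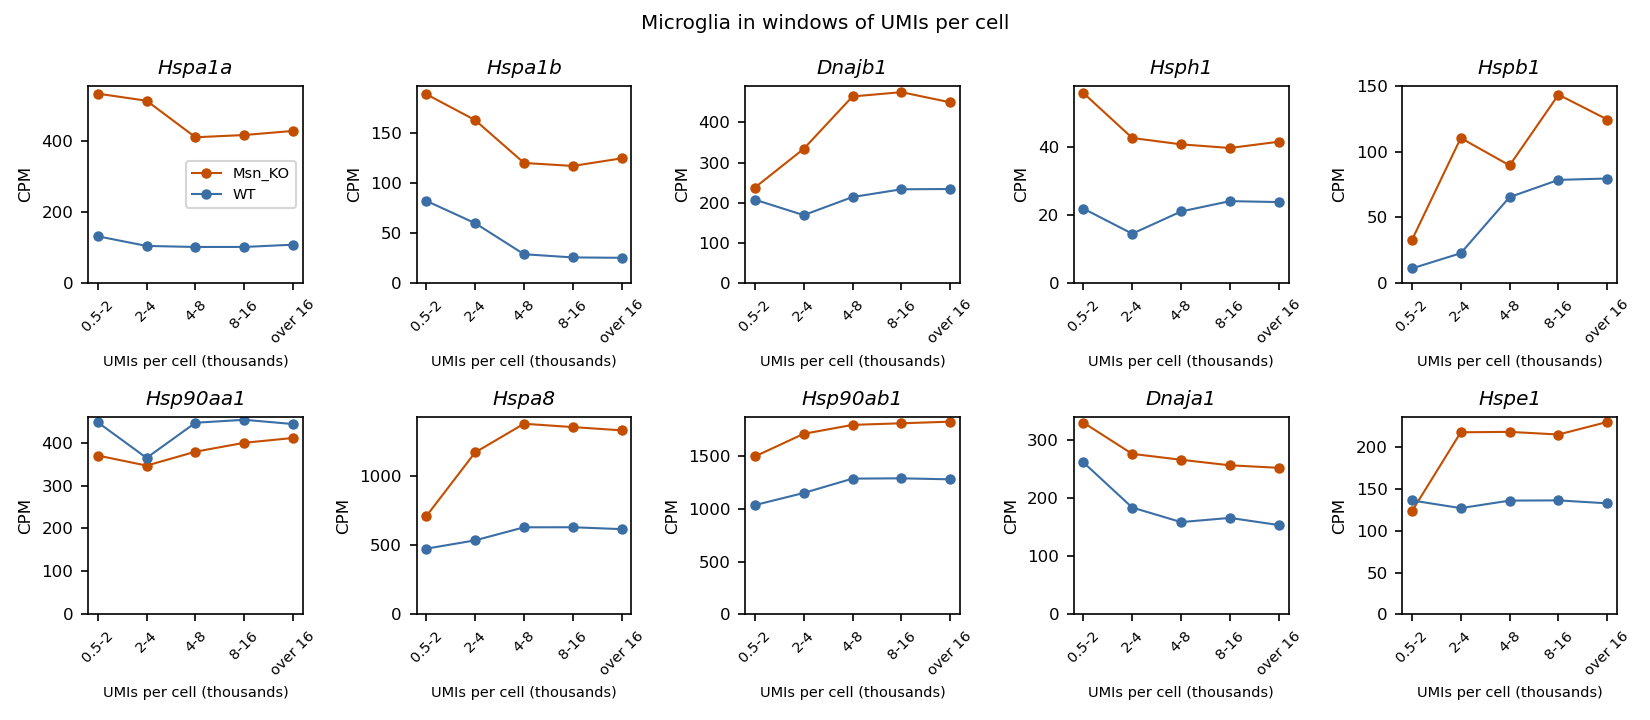
Levels of the 10 chaperone genes in microglia (CPM, linear axes from 0) in 5 windows of UMIs per cell, for Msn_KO (orange) and WT (blue). Hspa1a is higher in Msn_KO in each window (410 to 533 CPM, against 101 to 131 CPM in WT), and the Hsp90aa1 curves stay close (346 to 411 CPM in Msn_KO and 364 to 453 CPM in WT).

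Members were only weakly tied to each other from cell to cell. Over the 45 pairs of members in thinned microglia, the median Pearson correlation of log2(count + 1) was 0.041 in the Msn_KO library and 0.012 in the WT library, where sparse counts hold such values down. The pair with the highest value was Hspa1a and Hspa1b, at 0.29 in Msn_KO and 0.22 in WT microglia. Both were found in 10.1% of Msn_KO cells, where the product of their shares is 6.22%, and in 1.65% of WT cells, where it is 0.680%. Among 2839 other genes, those most like the summed stress-induced members were Jun, Fos, Dusp1, Btg2 and Egr1, genes known to be switched on fast by stimuli. Their correlations, 0.17, 0.11, 0.11, 0.09 and 0.08 in Msn_KO microglia and 0.12, 0.11, 0.09, 0.09 and 0.11 in WT microglia, are too weak to rest a statement on and are given as a description over cells of 1 library each.

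In monocytes, blood-derived cells, the inducible Hsp70 genes were again higher in the Msn_KO library when all gated cells were summed. Hspa1a stood at 175 CPM (162 to 189) in Msn_KO monocytes and 71.6 CPM (48.0 to 103) in WT monocytes, a relative log2 ratio of 1.5 (0.96 to 2.09). The WT level rests on 29 UMIs, of which 9 were in 1 cell. The libraries held the monocyte subsets in different shares: 387 of 666 Msn_KO and 24 of 55 WT cells had Ace alone, 127 Msn_KO and 23 WT cells Ly6c2 alone, and 152 Msn_KO and 8 WT cells both. Hspa1a stood at 152 CPM in Msn_KO and 23.8 CPM (3 UMIs) in WT cells with Ace alone, and at 237 CPM in Msn_KO and 51.3 CPM (11 UMIs) in WT cells with Ly6c2 alone. In cells with both it ran the other way, at 160 CPM (136 to 186) in Msn_KO and 232 CPM (130 to 383) in WT, where 8 cells held 15 of the 29 UMIs. Neutrophil markers summed to 2240 CPM in Msn_KO and 902 CPM in WT monocytes, with 6 of 6 found in both, and choroid plexus markers to 572 CPM in Msn_KO and 0 CPM in WT monocytes. The part of the subset mix and of these markers in the monocyte values was not tested. Hspa1b stood at 90.9 CPM in Msn_KO monocytes and 27.2 CPM (11 UMIs) in WT monocytes (1.95, 1.09 to 2.96). Dnajb1 stood at 149 CPM in Msn_KO monocytes and 69.2 CPM in WT monocytes (1.31, 0.76 to 1.91), and Dnaja1 at 333 CPM in Msn_KO and 156 CPM in WT (1.30, 0.94 to 1.69). Both J-domain genes thus had ratios within counting error of each other.

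The Hsp90ab1 level was 2573 CPM (2521 to 2625) in Msn_KO monocytes and 1307 CPM (1198 to 1423) in WT monocytes, a relative log2 ratio of 1.18 (1.05 to 1.31). Hsp90ab1 was higher in Msn_KO in each subset as well, at 3097 CPM in Msn_KO and 1801 CPM in WT cells with Ace alone, 1513 CPM in Msn_KO and 924 CPM in WT cells with Ly6c2 alone, and 2615 CPM in Msn_KO and 1611 CPM in WT cells with both. Hspa8 stood at 1636 CPM in Msn_KO monocytes and 971 CPM in WT monocytes (0.96, 0.81 to 1.11), below its microglial ratio. Hsp90aa1 (440 CPM in Msn_KO and 346 CPM in WT) and Hspe1 (243 CPM in Msn_KO and 195 CPM in WT) had relative log2 ratios of 0.55 and 0.52 and did not pass 1.5-fold. Within subsets Hsp90aa1 stood at 551 CPM in Msn_KO and 571 CPM in WT cells with Ace alone, 248 CPM in Msn_KO and 233 CPM in WT cells with Ly6c2 alone, and 420 CPM in Msn_KO and 279 CPM in WT cells with both. In all, 7 of the 9 members measured were higher in Msn_KO monocytes and 0 lower, against 19.9% and 22.0% of 7606 genes, and 6 were higher and 0 lower on the CPM scale, against 12.2% and 29.9%. The member that differed was Hsph1, with 63.8 CPM in Msn_KO monocytes and 44.5 CPM in WT monocytes. Hspb1 was below 10 CPM in both libraries, with 14 UMIs in Msn_KO and 4 in WT, and was not measured.

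**Figure D5:**
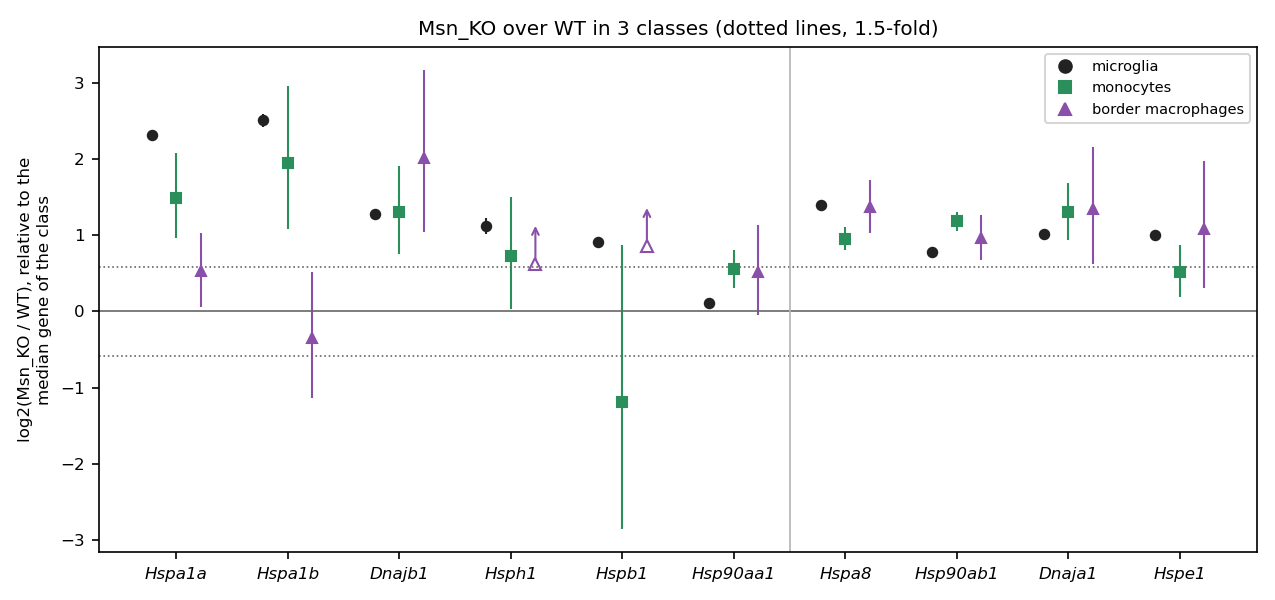
The log2 ratio of Msn_KO over WT for the 10 chaperone genes, relative to the median gene of each class, in microglia (circles), monocytes (squares) and border macrophages (triangles), with exact 95% counting intervals and dotted lines at 1.5-fold. Open triangles with an arrow are lower bounds for genes with 0 UMIs in WT border macrophages; Hspa1a stands at 2.32 in microglia, at 1.5 in monocytes, where WT holds 29 of its UMIs, and at 0.53 in border macrophages, where WT holds 44.

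Border macrophages, which sit along vessels and meninges, gave ratios with wide counting intervals, as the WT library held 25 of these cells. Hspa1a stood at 484 CPM (423 to 550) in Msn_KO border macrophages and 373 CPM (271 to 501) in WT border macrophages, a relative log2 ratio of 0.53 (0.06 to 1.03) that did not pass 1.5-fold. The WT level rests on 44 UMIs, of which 21 were in 1 of the 25 cells. Without the cell with the most Hspa1a UMIs in each library, the level was 434 CPM (377 to 497) in Msn_KO and 201 CPM (127 to 301) in WT border macrophages, and 8 members in place of 7 were higher. Hspa1b stood at 108 CPM in Msn_KO and 153 CPM in WT (relative log2 ratio -0.34, -1.14 to 0.52), with 9 of the 18 WT UMIs in 1 cell. Without the cell with the most Hspa1b UMIs in each library it stood at 92.4 CPM in Msn_KO and 79.5 CPM in WT, which turns the direction on the CPM scale. The values of both inducible Hsp70 genes in this class thus depend on single WT cells.

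The J-domain and constitutive genes were higher in Msn_KO border macrophages. Dnajb1 stood at 276 CPM (231 to 327) in Msn_KO and 76.3 CPM (34.9 to 145) in WT border macrophages, a relative log2 ratio of 2.01 (1.04 to 3.17). Its WT level rests on 9 UMIs, and the interval of the ratio overlaps those of Hspa8, Dnaja1, Hspe1 and Hsp90ab1. Hspa8 stood at 1513 CPM in Msn_KO and 653 CPM in WT (1.37, 1.03 to 1.73), Dnaja1 at 328 CPM in Msn_KO and 144 CPM in WT (1.34, 0.62 to 2.16), Hspe1 at 243 CPM in Msn_KO and 127 CPM in WT (1.09, 0.31 to 1.97) and Hsp90ab1 at 1650 CPM in Msn_KO and 941 CPM in WT (0.97, 0.68 to 1.27). Of the 17 Dnaja1 UMIs in WT 8 were in 1 cell, and without the cell with the most Dnaja1 UMIs in each library the levels were 302 CPM in Msn_KO and 78.5 CPM in WT. Hsp90aa1 (328 CPM in Msn_KO and 254 CPM in WT) had a relative log2 ratio of 0.52 (-0.05 to 1.14). Hsph1 and Hspb1 had 0 UMIs in WT border macrophages, where 3 UMIs would be 25.4 CPM. With WT set to these 3 UMIs, Hsph1 (35.3 CPM in Msn_KO, 17 UMIs) was 1.39-fold higher on the CPM scale. Hspb1, with 41.5 CPM in Msn_KO, was 1.63-fold higher. Counting error of the Msn_KO levels is left out of both values. Of the 20 Hspb1 UMIs 14 were in 1 Msn_KO cell, without which the level was 12.6 CPM, under those 25.4 CPM. In all 7 of 10 members were higher and 0 lower, against 23.7% and 30.3% of 8620 genes, and on the CPM scale 6 and 0, against 17.6% and 35.6%.

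Hsp90aa1 was the 1 member that passed 1.5-fold in none of the 3 classes compared. Its level per Hsp90ab1 was lower in Msn_KO than in WT cells in each class, at 0.171 (0.162 to 0.180) in Msn_KO and 0.265 (0.218 to 0.319) in WT monocytes and 0.199 (0.166 to 0.236) in Msn_KO and 0.270 (0.174 to 0.408) in WT border macrophages. In border macrophages those intervals overlap. In Msn_KO NK cells the ratio was 0.185 (0.144 to 0.234).

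The classes differed from each other within a library, a comparison that leaves genotype aside. Relative to microglia, Msn_KO monocytes had less Hspb1 (relative log2 ratio -4.56), Dnajb1 (-1.23) and Hspa1a (-0.90), and more Hsph1 (1.02), Hsp90ab1 (0.89), Dnaja1 (0.73) and Hspa8 (0.67). So 4 of 10 members were higher and 3 lower, near the 31.0% and 29.7% of 8480 genes. Plain CPM left Hsph1 higher and the same 3 lower, against 22.1% and 42.3%. In the WT library 55 monocytes gave lower Hspb1 (-2.49) and Dnajb1 (-1.29) and higher Hsph1 (1.38), Hspa8 (1.08) and Hspe1 (0.97), against 31.2% of 9325 genes lower and 32.0% higher. Plain CPM left Hspa8 and Hsph1 higher and the same 2 lower, against 21.4% and 44.5%. Low Dnajb1 and Hspb1 and high Hsph1 in monocytes thus stood in both libraries on both scales. High Hspa8 stood in both on the relative scale, since its Msn_KO ratio on the CPM scale was 0.29. The WT monocyte levels rest on 4 UMIs for Hspb1, of which 3 were in 1 cell, 18 for Hsph1 and 28 for Dnajb1. With called counts near or under the shares of all genes, nothing is read from them about the members as a set. Stress-induced UMIs per constitutive UMI were 0.193 in Msn_KO and 0.216 in WT monocytes, under the 0.428 and 0.411 of microglia.

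Microglial genes were also counted in the other classes, whether from free RNA, doublets or the cells' own RNA, which were not told apart. The Hspb1 level in Msn_KO monocytes was 3.26% (1.78 to 5.48) of that in microglia, while 8 microglial marker genes together stood at 3.63% of their microglial level in the same monocytes. Its level in Msn_KO NK cells was 4.24% of that in microglia from 1 UMI, beside 3.36% for the microglial markers. The Hspb1 level in these Msn_KO classes was therefore not above what microglial genes showed there beyond counting error. In WT monocytes it was 13.1% (3.58 to 33.7) from 4 UMIs, beside 4.55% for the microglial markers. After thinning, 0.641% (0.175 to 1.63) of thinned Msn_KO monocytes had an Hspb1 UMI, against 7.53% of thinned Msn_KO microglia. Hspa1a stood at 41.3% of its microglial level in Msn_KO monocytes, above the 3.63% of the microglial markers. Thinned monocytes with Hspa1a made up 21.8% of 624 Msn_KO cells and 13.2% of 53 WT cells, and 43.5% of Msn_KO and 16.4% of WT cells before thinning, at median depths of 5170 UMIs in Msn_KO and 7202 UMIs in WT. In border macrophages the microglial markers stood at 21.3% of their microglial level in the Msn_KO library and 14.4% in the WT library, of which Fcrls stood at 72.7% in the Msn_KO and 62.1% in the WT library.

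NK cells, lymphocytes present in the Msn_KO library alone among these gates, had the lowest inducible Hsp70 levels of the Msn_KO classes. Hspa1a stood at 68.3 CPM (37.3 to 115) and Hspa1b at 24.4 CPM (5 UMIs) in 42 cells. Relative to Msn_KO microglia Hspa1a was lower by a log2 ratio of -2.52, Hspa1b by -2.23, Dnajb1 by -1.0 and Hspb1 by -4.45. Hsph1 (1.29), Hspe1 (1.14) and Dnaja1 (0.96) were higher, so 3 members were higher and 4 lower, against 30.0% and 32.9% of 8664 genes. Hspa8 stood at 1556 CPM and Hsp90ab1 at 2141 CPM. Msn_KO border macrophages differed from Msn_KO microglia in Hspb1 alone among the members (-1.33), against 21.7% of 8547 genes lower and 21.3% higher, while plain CPM put Dnajb1 lower as well (-0.71), against 26.5% lower and 16.8% higher. WT border macrophages, with 25 cells, had higher Hspa1b (2.55) and Hspa1a (1.87) and lower Dnajb1 (-1.55), Hsp90aa1 (-0.78) and Hspb1 (at most -1.54) than WT microglia, against 23.4% of 9296 genes higher and 27.5% lower.

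Within Msn_KO monocytes the gate genes marked cells with different Hsp90 levels. Ace marks nonclassical and Ly6c2 classical monocytes, and cells with both were left out. Hsp90aa1 stood at 551 CPM in 387 Ace cells and 248 CPM in 127 Ly6c2 cells (relative log2 ratio 1.09), and Hsp90ab1 at 3097 CPM in Ace and 1513 CPM in Ly6c2 cells (0.97). Hsph1 stood at 74.9 CPM in Ace and 38.6 CPM in Ly6c2 cells (0.89) and Hspa1b at 94.8 CPM in Ace and 58.0 CPM in Ly6c2 cells (0.65), while Hspa1a ran the other way, at 152 CPM in Ace and 237 CPM in Ly6c2 cells (-0.71). Thus 4 members were higher and 1 lower in Ace cells, against 19.5% and 20.4% of 7357 genes. In the WT library Hsp90aa1 stood at 571 CPM in 24 Ace cells and 233 CPM in 23 Ly6c2 cells, and Hsp90ab1 at 1801 CPM in Ace and 924 CPM in Ly6c2 cells, in the same direction.

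Other genes of the pathway were followed through lists of named genes. HSF regulators were near the median gene in microglia: of 5 listed 3 were measured, and Hsf1, the master factor, stood at 26.7 CPM in Msn_KO microglia and 36.8 CPM in WT microglia (relative log2 ratio -0.17). Hsf2 stood at 15.4 CPM in Msn_KO and 23.6 CPM in WT (-0.32). Hsbp1, whose product binds HSF1 trimers, stood at 182 CPM in Msn_KO and 134 CPM in WT (0.74), higher by 1.5-fold on the relative scale alone. Of 22 other heat-induced genes 18 were measured, and 6 were higher and 1 lower, with a median of 0.36, where 15.0% of all genes were higher and 12.4% lower. Ubb, a polyubiquitin gene, stood at 2819 CPM in Msn_KO microglia and 1283 CPM in WT microglia (1.43), Dedd2 at 14.0 CPM in Msn_KO and 7.89 CPM in WT (1.12) and Ahsa1, an activator of Hsp90, at 79.9 CPM in Msn_KO and 53.2 CPM in WT (0.88). Hspa4, an exchange factor gene like Hsph1, stood at 81.8 CPM in Msn_KO and 122 CPM in WT (-0.28), and the inositol transporter gene Slc5a3 at 5.11 CPM in Msn_KO and 12.7 CPM in WT (-1.02). Without the shift by the median gene, 3 of these were higher and 2 lower, against 4.49% and 30.2% of all genes.

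Co-chaperones of Hsp70 and Hsp90 had a median relative log2 ratio of 0.57 in microglia. Of 15 measured genes 6 were higher and 0 lower, against 15.0% and 12.4% of all genes. On the CPM scale 1 was higher and 0 lower, against 4.49% and 30.2%. Fkbp5, an immunophilin of Hsp90 and a glucocorticoid target, stood at 111 CPM in Msn_KO microglia and 64.3 CPM in WT microglia (1.08). Ptges3, the p23 co-chaperone, stood at 214 CPM in Msn_KO and 160 CPM in WT (0.71). Of 8 subunits of the cytosolic chaperonin CCT 1 was higher (Cct7, 129 CPM in Msn_KO and 92.0 CPM in WT, 0.78), and of 6 prefoldin subunits 2 were higher (Pfdn5, 375 CPM in Msn_KO and 256 CPM in WT, 0.84, and Pfdn1, 57.1 CPM in Msn_KO and 40.7 CPM in WT, 0.78). Of 9 mitochondrial chaperones and proteases Grpel1 was higher (71.3 CPM in Msn_KO and 51.8 CPM in WT, 0.75), and Hspd1, the chaperonin partner of Hspe1, stood at 111 CPM in Msn_KO and 91.1 CPM in WT microglia (0.57). Of 15 chaperones of the endoplasmic reticulum 1 was higher (Creld2, 75 CPM in Msn_KO and 59.8 CPM in WT, 0.62), and Calr, calreticulin, stood at 662 CPM in Msn_KO and 1029 CPM in WT (-0.34). Beside the counts of 1 or 2 genes in the CCT, prefoldin, mitochondrial and endoplasmic reticulum lists stand 15.0% of all genes. On the CPM scale 0 genes of these lists were higher, against 4.49% of all genes.

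Immediate early genes, which stimuli switch on within minutes, ran both ways in microglia, with a median of 0.56. In Msn_KO microglia 7 of 14 were higher and 2 lower, against 15.0% and 12.4% of all genes. Unshifted, 4 were higher and 3 lower, against 4.49% and 30.2%. Junb stood at 4753 CPM in Msn_KO microglia and 2601 CPM in WT microglia (relative log2 ratio 1.16), Nr4a1 at 57.2 CPM in Msn_KO and 32.6 CPM in WT (1.11) and Ier2 at 1049 CPM in Msn_KO and 603 CPM in WT (1.09). Btg2 stood at 2115 CPM in Msn_KO and 4138 CPM in WT (-0.67) and Nfkbiz at 241 CPM in Msn_KO and 461 CPM in WT (-0.64). In Msn_KO monocytes 8 of 14 were higher and 0 lower than in WT monocytes, against 19.9% and 22.0% of all genes, and 6 were higher and 1 lower on the CPM scale. In border macrophages 8 were higher and 0 lower on both scales. Of all genes 23.7% were higher and 30.3% lower on the relative scale, and 17.6% and 35.6% on the CPM scale. The part of these genes' state in the chaperone differences was not tested.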

How the data were processed

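Single-cell RNA was measured in 1 Msn_KO and 1 WT library, grouped by the genotype label. The authors deposited raw UMI counts, which Cell Ranger 7.0.0 had written per the file headers (6.0 per the labels' protocols), from 10x 3′ v2 reads aligned to GRCm39. Per the labels' protocols Seurat removed cells under 500 genes, but the deposited counts still held 1463 Msn_KO and 207 WT barcodes under it.

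Cells with at least 500 genes and at most 10% mitochondrially encoded UMIs were kept. Cells that passed several gates were left out, and no doublet caller was run. UMIs were summed per class and library and divided by the class total (34257374 Msn_KO and 58958918 WT UMIs in microglia). Intervals are exact Poisson, conditional binomial or Clopper-Pearson at 95%, and 0 counts were bounded at 3 UMIs per class and library. The median ratio was -0.29 (log2) in microglia, -0.20 in monocytes and -0.16 in border macrophages. Genes under 10 CPM in both libraries count as not measured. Python 3.11.15, numpy 2.4.6, scipy 1.17.1 and pandas 2.3.3 were used, and the summing was tested on simulated data.

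All 10 members are named, with at most the 3 highest and 3 lowest ratios of each list in microglia, Msn, and the 5 genes at 50 CPM or more most like the stress-induced members. Hspd1, as partner of Hspe1, was named after its values were seen. The members and lists were chosen with earlier results of these data known. Hspd1 stands in 2 lists. Motifs and coordinates use the GENCODE annotation of GRCm39. Scaling, filters, gates, depth and weighting were varied. Genes withheld from the text are not reported here.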

Additional observations from a re-analysis of the deposited data

How the results depend on the processing

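No paired analysis was possible because each genotype has 1 library. Over 14 alternatives, the count of members at least 1.5-fold higher in Msn_KO was 8 to 9 in microglia (main 9), 6 to 9 in monocytes (main 7) and 5 to 9 in border macrophages (main 7). The lowest border macrophage count came from 1 random draw of cells thinned to 2000 UMIs. In monocytes Hspb1 was lower under 2 alternatives, a limit of 5% mitochondrial UMIs and the removal of the cell with the most Hspa1a UMIs. The alternative that took cells with P2ry12 or Tmem119 UMIs out of the other classes left the microglia unchanged, so their values under it were fixed. In microglia 9 members kept their call in 14 of 14 alternatives, that one included. Hsp90ab1 kept it in 12, and missed 1.5-fold on the plain CPM scale (0.49) and with the median set by genes at 100 CPM or more (0.58). Hsp90aa1 ran between -0.18 and 0.25 and was positive in 12. Hspa1a ran between 2.02 and 2.45. The 100 CPM setting and the removal of single cells were chosen after seeing the data. Precision is limited by 55 WT monocytes and 25 WT border macrophages, by the single library per genotype, and by microglial RNA in the other classes.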

Other observations

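Cells outside the 4 classes had more Hspa1a and Hspa8 RNA, but not Hsp90aa1 RNA, in the Msn_KO library. Cells that passed several gates (1277 Msn_KO and 303 WT cells, median 14063 UMIs in Msn_KO and 21462 in WT, which can include doublets) had Hspa1a at 392 CPM in Msn_KO and 113 CPM in WT. In the same cells Hspa8 stood at 1298 CPM in Msn_KO and 596 CPM in WT and Hsp90aa1 at 418 CPM in Msn_KO and 423 CPM in WT. Cells that passed no gate (998 Msn_KO and 222 WT cells, median 983 UMIs in Msn_KO and 1283.5 in WT) had Hspa1a at 467 CPM in Msn_KO and 137 CPM in WT, Hspa8 at 980 CPM in Msn_KO and 539 CPM in WT and Hsp90aa1 at 461 CPM in Msn_KO and 485 CPM in WT. Hsp90aa1 per Hsp90ab1 was 0.219 in Msn_KO and 0.334 in WT cells of several gates, and 0.242 in Msn_KO and 0.369 in WT cells of no gate.

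Other lists of folding genes were set between monocytes and microglia within each library. Of 15 chaperone genes of the endoplasmic reticulum 0 were at least 1.5-fold higher and 12 lower in Msn_KO monocytes than in Msn_KO microglia, against 31.0% and 29.7% of all genes, and on the CPM scale 0 higher and 14 lower, against 22.1% and 42.3%. In the WT library 0 were higher and 6 lower, near the 31.2% of all genes lower, and on the CPM scale 0 higher and 11 lower, against 44.5% lower. Of 6 prefoldin subunits 5 were higher in monocytes of each library, against 31.0% (Msn_KO) and 32.0% (WT) of all genes, and 3 on the CPM scale, against 22.1% (Msn_KO) and 21.4% (WT). Of 8 CCT subunits 6 were higher in each library relative to the median gene, against 31.0% (Msn_KO) and 32.0% (WT) of all genes. By plain CPM 0 passed upward and 1 downward in the Msn_KO library, against 22.1% and 42.3%. In the WT library 1 passed upward and 1 downward, against 21.4% and 44.5%.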
